A study of Homo sapiens with 3 samples.

Results

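The amino acid transporter genes of A375 melanoma cells were compared after exposure to serum-free medium alone (control) or to the secretome of young (YA-A375) or old (OA-A375) adipocytes; the groups are called control, YA and OA. The set was defined by gene symbol and comprised the protein-coding members of the SLC1, SLC3, SLC6, SLC7, SLC36, SLC38 and SLC43 solute carrier families, with 1 SLC7 gene left out. It held 58 of the 58037 genes in the count table. Of these, 26 reached a mean normalised count of 20 over the 3 libraries and were compared, and 32 did not.

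Solute carriers move small molecules across membranes, and these families together supply the cell with amino acids for protein synthesis, nucleotide synthesis and redox control. A central arrangement is the CD98 complex, in which the heavy chain SLC3A2 brings a light chain such as SLC7A5 (LAT1) to the cell surface, where large neutral amino acids including leucine are taken up in exchange for intracellular glutamine. Glutamine itself enters through carriers such as SLC1A5 (ASCT2) and the sodium-coupled SLC38A1 and SLC38A2. Several of these genes are transcribed under ATF4, a transcription factor of the amino acid shortage and stress response. The set is wider than its name, because the SLC6 family also carries monoamines, GABA, taurine and creatine.

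A375 is an established human melanoma cell line. Control cells were kept in serum-free DMEM, YA-A375 cells in medium conditioned by adipocytes of young donors, and OA-A375 cells in medium conditioned by adipocytes of old donors. The adipocytes had been differentiated in culture from subcutaneous preadipocytes with insulin, dexamethasone, indomethacin and IBMX, and gave off their secretome into serum-free DMEM. Exposure lasted 24 h by the series description and the sequencing methods, while the treatment protocol in the labels allows for longer. Poly(A) RNA was sequenced from 1 library per group, so no difference has a replicate check, no test across samples was possible, and the intervals given with each ratio are 95% Clopper-Pearson intervals that cover counting error only. How many donors lay behind each secretome used for these libraries was not given in the sources used here. The young donors listed by the study were mostly female and mostly purchased from a supplier. The old donors listed were all male and mostly from a biobank. Between YA and OA, donor age may therefore not be separable from sex and source.

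Total counts ranged from 18089008 to 21448195 per library. The melanoma markers CSPG4, MITF and S100B were present, with counts of at least 16208, 764 and 550 in every library, whereas SOX10 was listed at 0 in every library and the pigment genes PMEL, MLANA, TYR, TYRP1 and DCT had 22 counts or fewer. The normalised counts of 12 melanoma markers summed to 23208 in control, 31386 with YA and 21308 with OA. CSPG4 made up most of this sum and was 1.50-fold higher in YA, whereas MITF was 1.59-fold lower and S100B 1.42-fold lower there. NGFR, with 3060, 2774 and 1289 counts in control, YA and OA, was 1.99-fold lower in OA. S100B was 1.29-fold lower in OA, and the ratios of CSPG4 and MITF to control there were 0.993 and 0.860. The summed normalised count of 8 adipocyte markers was 1872 in control, 2457 with YA and 1796 with OA. Most of it came from PPARG, with 1608, 1964 and 1530 counts in control, YA and OA, and LPL, with 353, 583 and 30. CIDEC had 6, 31 and 36 counts, while ADIPOQ had at most 1 count and LEP none. The control cells received no secretome and also held PPARG and LPL counts. In a bulk library, fewer cells of a type and less RNA per cell cannot be told apart. The sum over 8 fibroblast or preadipocyte markers was 707, 895 and 624 in the same order, with DCN at 13, 138 and 24 counts, PDGFRA at 76, 20 and 51, and PDGFRB, the largest contributor, at 515, 568 and 334. The sums over 4 leukocyte markers (21.7, 29.3 and 20.2) and 3 endothelial markers (57.5, 47.3 and 34.8) were low. Whether RNA of other cell types entered the transporter values was not tested.

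Transporter genes took a larger share of the reads after either secretome. All 58 together held 0.281% of control counts (95% Wilson interval 0.279 to 0.283), 0.359% of YA counts (0.356 to 0.361) and 0.344% of OA counts (0.341 to 0.347). Most of the difference in YA, and more than all of it in OA, lay in SLC7A5 and SLC3A2. This pair held 0.0746% of control counts, 0.140% of YA counts and 0.159% of OA counts. The other members together differed less and held 0.207% of control (0.205 to 0.208), 0.218% of YA (0.216 to 0.220) and 0.185% of OA counts (0.183 to 0.187). SLC7A5 alone was 21.1% of the transporter counts in control, 31.2% with YA and 37.3% with OA.

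**Figure D1:**
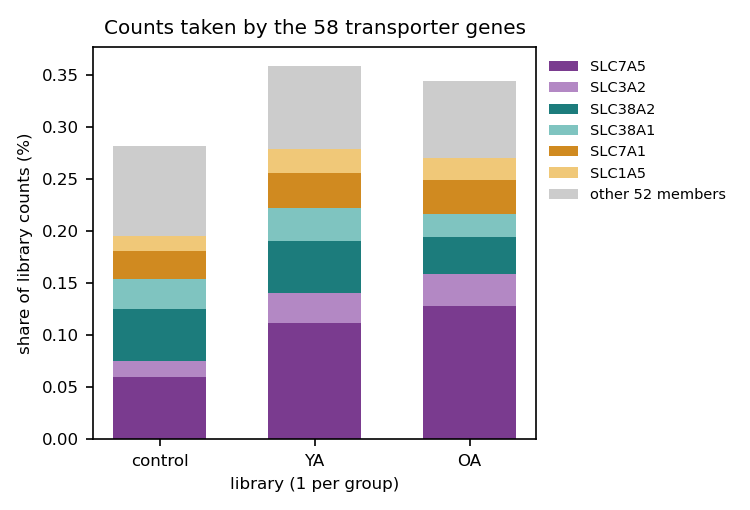
Share of all library counts (percent, vertical axis) taken by the transporter genes in each of the 3 libraries, stacked by gene. The SLC7A5 and SLC3A2 segments together grow from 0.0746% in control to 0.140% in YA and 0.159% in OA, and the SLC38A2 and SLC38A1 segments together shrink from 0.0792% in control to 0.0576% in OA.

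Levels were compared between genes per length, as TPM, that is counts divided by the length of the annotated exons of the gene and scaled to the same total in each library. In control the highest were SLC7A5 (519 TPM), SLC38A2 (315 TPM), SLC1A5 (184 TPM) and SLC7A1 (145 TPM), each above the next beyond counting error. SLC3A2 (122 TPM) and SLC38A1 (121 TPM) followed and could not be told apart. SLC6A8, SLC6A6, SLC43A3, SLC6A15, SLC1A1, SLC38A10 and SLC1A4 lay between 91.9 and 38.6 TPM, and the other 13 compared genes at 16.3 TPM or less. The middle of that lower group, from SLC6A9 at 12.7 TPM to SLC38A7 at 10.2 TPM, held 8 genes, and no neighbors among them differed beyond counting error. In YA the first 6 places were taken by SLC7A5 (959 TPM), SLC38A2 (304 TPM), SLC1A5 (278 TPM), SLC3A2 (225 TPM), SLC7A1 (175 TPM) and SLC38A1 (132 TPM). In OA SLC7A5 reached 1115 TPM, SLC1A5 (260 TPM) and SLC3A2 (245 TPM) stood above SLC38A2 (218 TPM), and SLC7A1 came next (176 TPM).

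**Figure D2:**
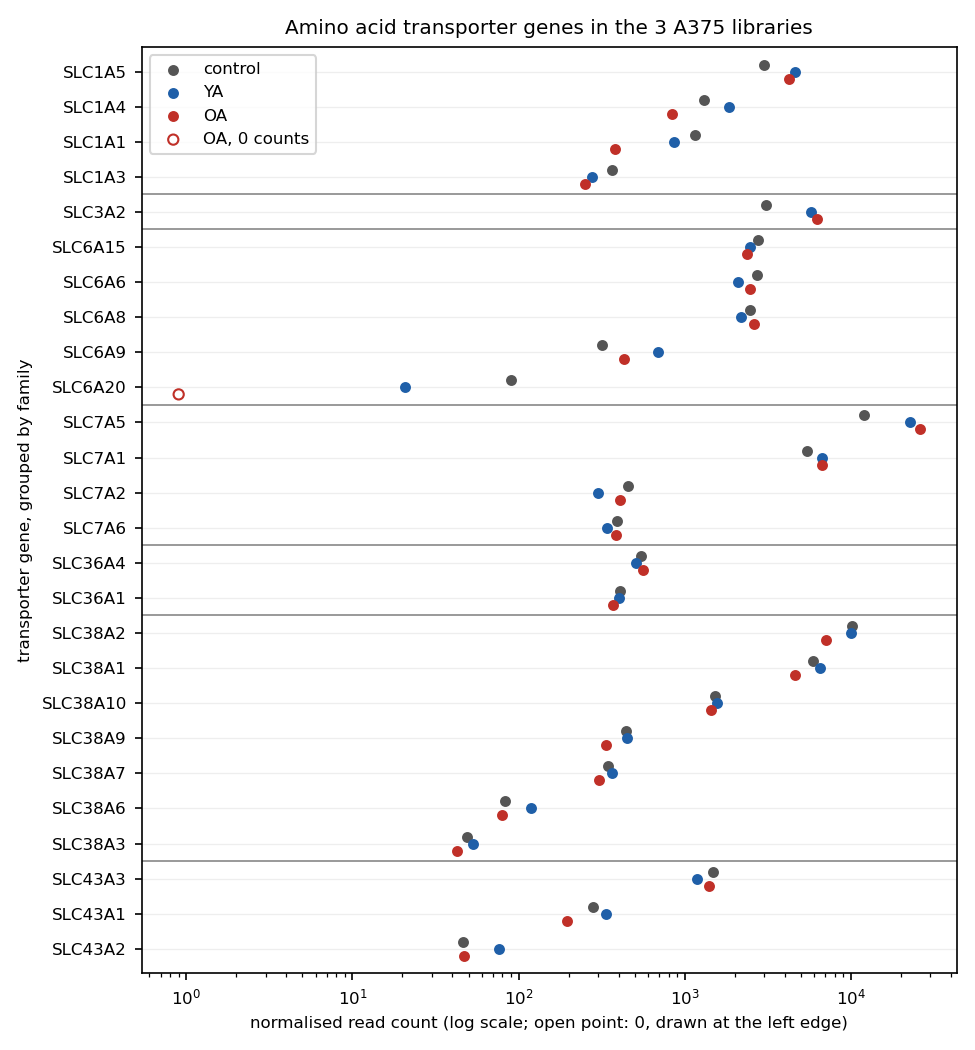
Normalised read count (log scale, horizontal axis) of the 26 compared transporter genes, 1 point per library and gene, with horizontal lines between families; an open point marks a count of 0. SLC7A5 has the highest normalised count in every library, and SLC6A20 runs from 89.5 in control to 20.8 in YA and 0 in OA.

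The promoters of the transporters were searched for the core of the C/EBP-ATF response element, TGATGNAA on either strand, which ATF4 dimers are known to bind. RefSeq windows on GRCh38.p14, running from 250 bases before a transcript start through the first 50 transcribed bases, were matched by symbol for 44 of the 58 genes. A match occurred in 6 of 44 genes (13.6%), beside 4.46% of all symbols with a window, and all 6 were among the compared genes. The 6 matches are shown because the genes that carry them include the heavy chain and the glutamine carrier described next. Capitals mark the 8 matching bases, each strand is that of the gene, and the other bases are flanking sequence.
SLC1A5 (chr19:46784893-46784922, minus strand; match at positions -97 to -90 from the RefSeq start): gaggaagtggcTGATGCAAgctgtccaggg
SLC1A3 (chr5:36596357-36596386, plus strand; positions -220 to -213): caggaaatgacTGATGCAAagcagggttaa
SLC38A1 (chr12:46266502-46266531, minus strand; across the start): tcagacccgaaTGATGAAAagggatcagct
SLC7A1 (chr13:29595663-29595692, minus strand; positions 8 to 15): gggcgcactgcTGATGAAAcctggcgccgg
SLC1A4 (chr2:64989381-64989410, plus strand; across the start, on the opposite strand): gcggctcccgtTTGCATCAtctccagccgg
SLC3A2 (chr11:62881725-62881748, plus strand; positions 38 to 45, on the opposite strand): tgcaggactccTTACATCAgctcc
Positions count from the RefSeq transcript start of each window. The starts for SLC1A5, SLC38A1, SLC1A4 and SLC3A2 lie inside the gene as GENCODE annotates it, and that for SLC1A3 lies upstream of it. A match describes letters in these windows only.

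Transporters past the cutoff lay in both directions in YA and OA against control, and mostly in 1 direction between YA and OA. At the 1.2-fold cutoff, 8 of 26 (30.8%) were higher in YA, where 17.4% of all 14413 genes compared were higher, and 6 (23.1%) were lower, where 16.4% of all genes were. With the 23 genes of few counts included, the numbers in YA were 14 higher and 19 lower. There 1 count beside 0, as for SLC7A9, passes the cutoff. The share of all genes was not computed at that setting. In OA, 5 (19.2%) were higher beside 21.1% of all genes, and 8 (30.8%) were lower beside 21.5%. Between the secretomes, 12 (46.2%) were higher in YA than in OA beside 23% of all genes, and 2 (7.69%) were lower beside 21.5%. The median log2 fold change of the transporters was 0.03 in YA, -0.14 in OA and 0.13 between YA and OA, beside -0.02, 0.01 and -0.01 over all genes. The 190 compared solute carriers outside the set gave 34 higher and 38 lower in YA, 35 and 46 in OA, and 47 and 43 between YA and OA. The skew between YA and OA was not particular to the transporters. Of 21 amino acid synthesis enzymes, described below, 9 (42.9%) were higher in YA than in OA and 2 (9.52%) lower. Of 37 amino acid sensing and stress-response genes, 13 (35.1%) were higher and none lower. Of 14 mitochondrial and lysosomal carriers, 4 (28.6%) were higher and 3 (21.4%) lower. YA and OA were set against the same control library, and the YA and OA libraries also enter the third comparison. Of the 6 genes with a promoter match, 4 exceeded control by 1.2-fold or more in YA and 1 was lower. Against control in OA, 3 were higher and 3 lower. Among the 15 compared genes whose promoter windows had no match, 4 were higher and 2 lower in YA, and 2 were higher and 5 lower in OA. Between YA and OA, 2 of the 6 with a match were higher and none lower, and 9 of the 15 without one were higher and 1 lower. SLC7A5 was one of those 15.

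**Figure D3:**
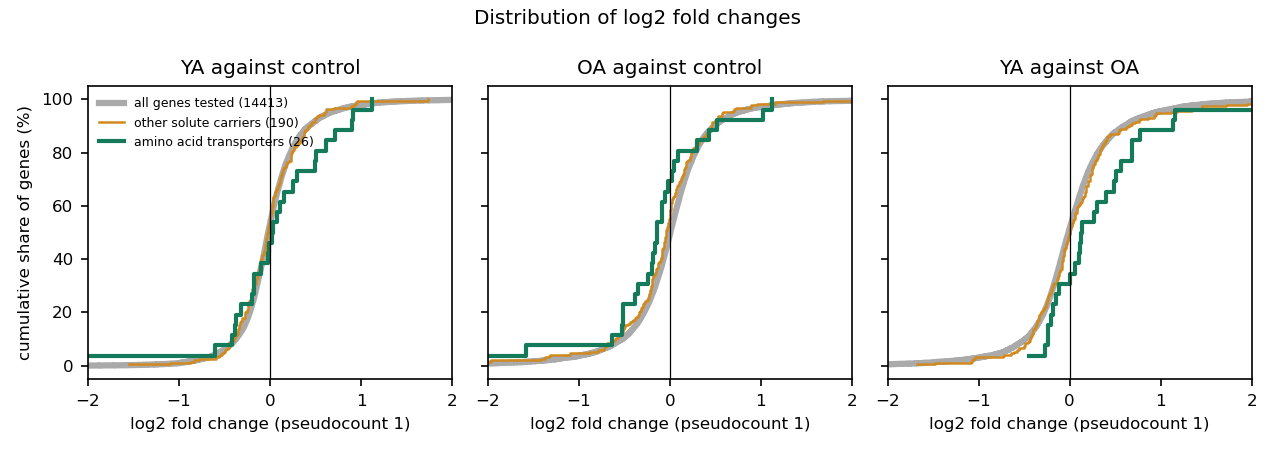
Cumulative share of genes (percent, vertical axis) against log2 fold change with a pseudocount of 1 (horizontal axis, drawn from -2 to 2) in the 3 comparisons, for the 26 transporters, the 190 other solute carriers and all 14413 genes compared. The transporter line lies to the right of the others over most of the YA against OA panel, where 12 of 26 genes are at least 1.2-fold higher.

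The CD98 heavy chain and its LAT1 light chain were higher than control in both libraries, by about the same factor. SLC7A5 (ENSG00000103257.8; GRCh38 chromosome 16, 87830023 to 87869488) had 11989 normalised counts in control, 22518 with YA and 26020 with OA. This is 1.88-fold in YA (interval 1.84 to 1.92) and 2.17-fold in OA (2.12 to 2.22). SLC3A2 (ENSG00000168003.16; chromosome 11, 62856102 to 62888875) had 3078 in control, 5760 with YA and 6237 with OA, which is 1.87-fold (1.79 to 1.95) and 2.03-fold (1.94 to 2.12). Both libraries lay above control for both genes, and YA lay slightly below OA, with ratios of 0.865 (0.850 to 0.881) for SLC7A5 and 0.924 (0.890 to 0.958) for SLC3A2. The light chain and the heavy chain kept nearly the same proportion per length. The ratio of SLC7A5 to SLC3A2 in counts per exon base was 4.25 in control (4.09 to 4.42), 4.27 with YA (4.15 to 4.39) and 4.55 with OA (4.42 to 4.69). These are not transcript numbers, because the annotated exons can overstate the length of genes with many isoforms.

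Of the other light chains of CD98 in the set, SLC7A6 passed the filter. SLC7A6, which exchanges cationic for neutral amino acids, had 391 normalised counts in control, 340 with YA and 385 with OA, within 1.2-fold of control in both. SLC7A5 therefore stood at 49.0 times SLC7A6 per length in control and at 106 and 108 times in YA and OA. SLC7A6 shares 44.4% of its exon bases with SLC7A6OS and 11.1% with AC020978.9, both on the other strand. Reads there may not have been assigned to SLC7A6, so its level per length may be understated and these ratios overstated. SLC7A7 and SLC7A8, 2 further partners of the heavy chain, were below the filter. SLC7A7 had 11, 18 and 11 counts in control, YA and OA. SLC7A8 had 19, 16 and 2, and its ratio of 0.125 in OA against control had an interval from 0.0142 to 0.520.

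The cationic amino acid carriers differed in direction. SLC7A1, the main carrier of arginine and lysine into most cells, had 5432 normalised counts in control, 6668 with YA and 6669 with OA. It was 1.23-fold of control in both (1.19 to 1.27 in YA, 1.18 to 1.27 in OA), just past the cutoff, and the ratio of YA to OA was 1.00 (0.966 to 1.04). SLC7A2 (ENSG00000003989.16; chromosome 8, 17497088 to 17570573), a cationic carrier that is more restricted to certain tissues, had 456 in control, 299 with YA and 407 with OA. It was 1.53-fold lower in YA (1.32 to 1.77), while in OA the ratio was 0.893 (0.778 to 1.03).

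In the SLC1 family, the neutral amino acid exchangers and the glutamate carriers differed. SLC1A5 (ENSG00000105281.12; chromosome 19, 46774883 to 46788594), the glutamine exchanger, had 2982 normalised counts in control, 4577 with YA and 4264 with OA, which is 1.53-fold (1.47 to 1.61) and 1.43-fold (1.36 to 1.50). SLC1A4 (ASCT1; ENSG00000115902.10; chromosome 2, 64988477 to 65023865), an exchanger of serine, alanine and threonine, had 1304 in control, 1840 with YA and 840 with OA. It was 1.41-fold higher in YA (1.32 to 1.51) and 1.55-fold lower in OA (1.42 to 1.70), so it was highest in YA and lowest in OA, with a ratio of 2.19 between them (2.01 to 2.39). The ratio of SLC1A5 to SLC1A4 in counts per exon base was 4.76 in control, 5.18 with YA and 10.6 with OA (9.78 to 11.5). SLC1A5 and SLC1A4 both hold the motif shown above.

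Both glutamate carriers that were compared were lower after either secretome. SLC1A1 (EAAT3; ENSG00000106688.11; chromosome 9, 4490444 to 4587469), which takes up glutamate, aspartate and cysteine, had 1149 normalised counts in control, 856 with YA and 383 with OA. It was 1.34-fold lower in YA (1.23 to 1.46) and 3.00-fold lower in OA (2.66 to 3.39), the lowest ratio to control among compared transporters with counts in all libraries, and YA exceeded OA by 2.24-fold (1.97 to 2.54). SLC1A3 (EAAT1; ENSG00000079215.13; chromosome 5, 36606355 to 36688334) had 363 in control, 277 with YA and 253 with OA. It was 1.31-fold lower in YA (1.12 to 1.53) and 1.44-fold lower in OA (1.22 to 1.70), and YA and OA did not differ beyond counting error (ratio 1.10, 0.918 to 1.31).

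Of the 7 sodium-coupled SLC38 carriers compared, 3 were lower in OA, where 21.5% of all genes were lower. The interval lay wholly beyond 1.2-fold for 2 of these 3, SLC38A2 and SLC38A1, but not for SLC38A9. In YA all but SLC38A6 were within 1.2-fold of control. SLC38A2 (SNAT2; ENSG00000134294.13; chromosome 12, 46358189 to 46372867), an importer of small neutral amino acids that is known to be induced when amino acids are scarce, had 10114 normalised counts in control, 9944 with YA and 7084 with OA. Its ratio to control was 0.983 in YA (0.957 to 1.01), and it was 1.43-fold lower in OA (1.38 to 1.47). SLC38A1 (SNAT1; ENSG00000111371.15; chromosome 12, 46183063 to 46270017), a glutamine importer encoded on the same chromosome, had 5887, 6554 and 4604, with a ratio of 1.11 in YA (1.08 to 1.15), and was 1.28-fold lower in OA (1.23 to 1.33). SLC38A9 (ENSG00000177058.11; chromosome 5, 55625845 to 55773194), the lysosomal arginine sensor of the mTORC1 pathway, had 440, 446 and 338, and was 1.30-fold lower in OA (1.12 to 1.51). Its ratio of 1.01 in YA (0.890 to 1.15) showed no detectable difference at this depth.

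Between the secretomes, 6 of the 7 SLC38 genes exceeded OA by 1.2-fold or more in YA, and none was lower, beside 23% and 21.5% of all genes. The interval excluded ratios under 1.2 for SLC38A1 (1.42-fold, 1.37 to 1.48) and SLC38A2 (1.40-fold, 1.36 to 1.45). The other 4, SLC38A9, SLC38A7, SLC38A6 and SLC38A3, had ratios between 1.21 and 1.48, and the interval of SLC38A3 included 1. SLC38A10 was the exception at 1.08 (1.01 to 1.17).

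**Figure D4:**
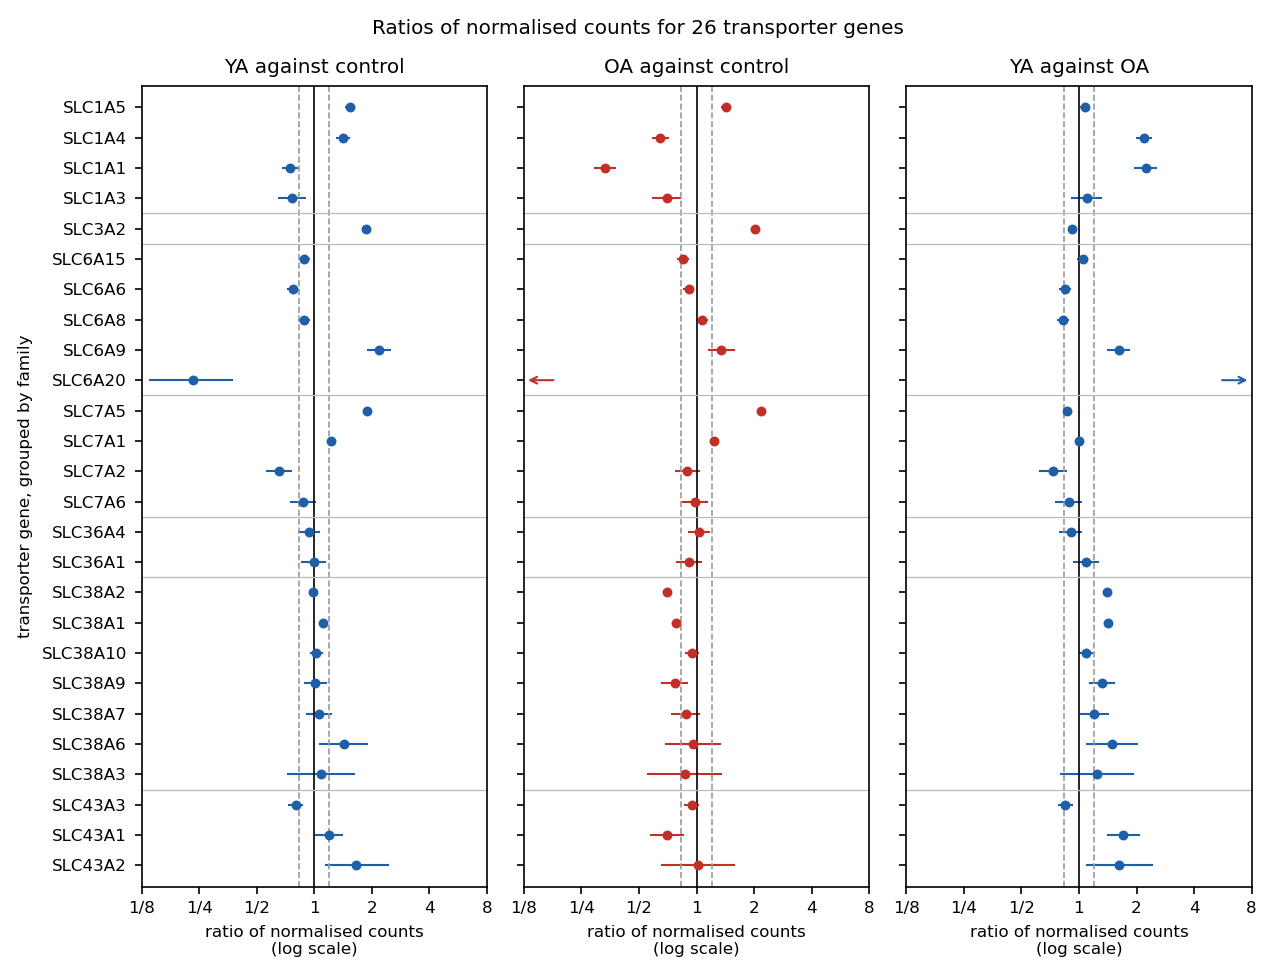
Ratio of normalised counts (log scale, horizontal axis) of each of the 26 compared transporters, grouped by family, in the 3 comparisons, with 95% counting intervals as lines; dashed lines mark 1.2-fold in each direction, and arrows stand for SLC6A20, which had 0 counts in OA. SLC1A4 lies to the right of 1 in YA (1.41) and to the left in OA (0.644), and most SLC38 genes lie to the right of 1 in YA against OA.

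In the SLC6 family, 5 of 19 genes were compared. SLC6A9 (GLYT1; ENSG00000196517.11; chromosome 1, 43991500 to 44031467), a glycine importer, had 318 normalised counts in control, 693 with YA and 429 with OA. It was 2.18-fold higher in YA (1.91 to 2.48), the highest ratio among the 26 compared transporters in YA, and 1.35-fold higher in OA (1.16 to 1.56), with YA above OA by 1.62-fold (1.43 to 1.83). SLC6A6 (TauT; ENSG00000131389.16; chromosome 3, 14402576 to 14489349), the taurine importer, had 2718, 2094 and 2467, and was 1.30-fold lower in YA (1.23 to 1.37). In OA its ratio to control was 0.908 (0.858 to 0.960).

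SLC6A20 (SIT1; ENSG00000163817.15; chromosome 3, 45755450 to 45796535), a carrier of proline and other imino acids, had 95 counts in control, 22 with YA and 0 with OA. It was 4.31-fold lower in YA (2.69 to 7.19). A count of 0 allows up to 3 counts, and against that floor OA was at least 26.6-fold lower than control and YA at least 6.17-fold higher than OA. The 95% counting intervals, which also take in the error of the other library's count, begin at 21.2-fold and 4.61-fold. The remaining SLC6 genes compared, the creatine carrier SLC6A8 and the neutral amino acid carrier SLC6A15, had between 2171 and 2772 normalised counts in every library and stayed within 1.2-fold of control. SLC6A8 was 1.21-fold lower in YA than in OA (1.14 to 1.28), at the edge of the cutoff, and fell inside it under other scaling.

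Carriers that move amino acids down their gradient belong to the SLC43 family. SLC43A1 (LAT3; ENSG00000149150.8; chromosome 11, 57484534 to 57515786), which carries branched-chain amino acids, had 281 normalised counts in control, 336 with YA and 196 with OA. It was 1.43-fold lower in OA (1.18 to 1.73), its ratio to control in YA was 1.19 (1.02 to 1.40), and YA exceeded OA by 1.71-fold (1.42 to 2.06). SLC43A2 (LAT4) had 49, 81 and 42 counts and was 1.66-fold higher in YA, with a wide interval (1.15 to 2.41). SLC43A3, which has been linked to nucleobases rather than amino acids, was 1.25-fold lower in YA (1.16 to 1.35). The proton-coupled SLC36A1 and SLC36A4, which serve lysosomes and other inner membranes, stayed within 1.2-fold of control, with ratios between 0.909 and 1.03.

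The 32 genes below the filter had 24 counts or fewer in every library, and 9 of them had none. Those without a count were SLC1A6, SLC6A2, SLC6A18, SLC6A19, SLC7A10, SLC7A13, SLC7A14, SLC36A2 and SLC38A11, several of which are known from kidney, intestine or nervous system. Of the remaining 23, the neurotransmitter carriers SLC6A3, SLC6A4, SLC6A5, SLC6A11, SLC6A12 and SLC6A13 had at most 7 counts, as did SLC1A2, SLC1A7, SLC3A1, SLC6A7, SLC7A3, SLC7A4, SLC7A9, SLC36A3, SLC38A5 and SLC38A8. SLC6A14, SLC6A16 and SLC6A17 had between 3 and 13. The highest was SLC38A4, with 24 counts in control, 18 with YA and 4 with OA, a ratio of 0.199 in OA (0.0501 to 0.578).

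Other genes of amino acid supply were described from lists. Of 21 synthesis enzymes, 12 were at least 1.2-fold higher in YA and 2 lower, with a median log2 fold change of 0.46, and in OA 9 were higher and 2 lower, with a median of 0.24. These are 57.1% and 9.52% in YA, beside 17.4% and 16.4% of all genes, and 42.9% and 9.52% in OA, beside 21.1% and 21.5%. ASNS, which makes asparagine, had 1008, 3881 and 2086 counts in control, YA and OA, a ratio of 3.86 in YA (3.60 to 4.14) and 2.47 in OA (2.29 to 2.66). CTH, which makes cysteine from cystathionine, had 258, 710 and 258 and was 2.76-fold in YA (2.39 to 3.20). GLUL, which makes glutamine, went the other way with 418, 292 and 158 counts, 1.43-fold lower in YA (1.23 to 1.66) and 2.22-fold lower in OA (1.85 to 2.68).

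Another list held 37 genes, both components of amino acid sensing and stress-response genes. In YA 11 were higher and 1 lower (median 0.12), and in OA 6 were higher and 5 lower (median -0.01). In YA these are 29.7% and 2.70%, above and below the shares of all genes, and in OA 16.2% and 13.5%, both below the shares of all genes. The largest ratios in YA were those of the stress-response genes CHAC1 (2.99, 2.56 to 3.52), TRIB3 (2.67, 2.50 to 2.85) and SESN2 (2.51, 2.23 to 2.83), which were 1.32, 0.965 and 1.39 in OA. The stress-response genes DDIT4 (2.38 in YA) and DDIT3 (1.72 in YA) were also among the 11. ATF4 itself had 6784, 9475 and 7003 counts, a ratio of 1.40 in YA and 1.23 in OA. Of 17 genes listed as mitochondrial and lysosomal amino acid carriers, 14 were compared. In YA 2 were higher and 2 lower, 14.3% each way. In OA 1 was higher and 3 lower, 7.14% and 21.4%. All these shares were at or below the shares of all genes. The list also held SLC16A10, a plasma membrane carrier, which was among those lower in YA (ratio 0.739, 0.484 to 1.12). The lysine and arginine carrier of mitochondria SLC25A29 had 285, 348 and 153 counts, the glutamate carrier SLC25A22 had 1329, 1348 and 1544, and MFSD12, a cysteine importer of lysosomes and melanosomes, had 2736, 3347 and 2057. Between YA and OA these ratios were 1.92 (1.58 to 2.33), 0.735 (0.683 to 0.791) and 1.37 (1.30 to 1.45).

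Counts of members with near-identical or overlapping genes are less certain, because the strand setting of the counting was not given. SLC7A6 shares 44.4% of its exon bases with SLC7A6OS on the other strand, which had 136, 181 and 156 counts. SLC43A3 shares 29.9% with AP000781.2 on its own strand, which had 1 count or none, so that reads there could not be assigned by strand either. For SLC1A5 23.4% of exon bases lie opposite AC008622.2, which had 4 counts or fewer. The pseudogene SLC7A5P1 had 12, 24 and 27 counts, together 0.105% of those of SLC7A5, and SLC6A10P, a pseudogene of SLC6A8, had 34, 96 and 14.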

How the data were processed

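Raw gene-level read counts of 3 A375 libraries, 1 per group, were used as deposited. The submitters' processing notes name STAR 2.5.1b, featureCounts, R 3.6.1 and hg38; the annotation release and strand setting are not given in the sources used here. Groups were taken from the labels.

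Normalised counts were obtained with the size factors (median of ratios) of DESeq2 1.42.0, run in R 4.3.3 (1.06 for control, 1.06 for YA and 0.891 for OA). The comparison took in genes whose normalised count averaged 20 or more over the 3 libraries. A gene counted as higher or lower from 1.2-fold up, the cutoff named in the study's methods read as a linear fold, on log2 values with a pseudocount of 1. Printed ratios carry no pseudocount. With 1 library per group neither DESeq2 nor edgeR can give a test, and neither the intervals nor the 3-count floor covers more than counting error, since amplified reads are not independent molecules. Ratios, intervals and plots were made in Python 3.11.15 with scipy 1.17.1, numpy 2.4.6, matplotlib 3.10.9 and pandas 2.3.3. The steps were tested on simulated counts.

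GENCODE 29 (GRCh38) gave positions and exon lengths for 57433 of 58037 gene identifiers, all 58 members included. The TPM values were computed here over the union of annotated exons, which overstates the length of genes with many isoforms. Promoter sequences are from RefSeq.

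The values of 1 member below the filter are not reported here. The members and gene lists were chosen with earlier results of these data known. Members were named with full values when the counting interval lay wholly beyond 1.2-fold in at least 1 comparison, which held for 13, and SLC1A5, SLC3A2, SLC7A5, SLC38A2, SLC38A9 and SLC6A20 were named whatever their values. Of the other lists up to 3 genes furthest beyond 1.2-fold were named. ATF4 and the other members described were chosen after values had been seen. Alternatives were TMM scaling from edgeR 4.0.16, total-count scaling, a pseudocount of 5, no filter, a minimum mean of 100, other thresholds, the mean in place of the median and a correction for exon length.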

Additional observations from a re-analysis of the deposited data

Results flagged for a closer look

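SLC1A4, the serine, alanine and threonine exchanger, was the transporter whose counting intervals lay beyond 1.2-fold in opposite directions against the shared control. Its ratio to control was 1.41 with YA and 0.644 with OA. The groups had 1 library each, so this difference was not tested.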

How the results depend on the processing

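No paired analysis was possible because each group had 1 library and no result came from a test, and no replicate could be left out. The median log2 fold changes of the transporters stayed inside the binomial interval of the median under every alternative run. Not all kept their size or sign. The interval reflects spread among the member genes, not variation between libraries, so it is no check on the differences between groups. Without a filter the median of YA beside control went from 0.03 to -0.10, that of OA beside control from -0.14 to -0.24, and that between the secretomes from 0.13 to 0.27. The means were 0.05, -0.34 and 0.39, and with a minimum mean of 100 the first median was 0.01. The means for OA beside control and between the secretomes lean on SLC6A20, at -6.50 and 4.45 with 0 counts in OA. Among the log2 fold changes of the 14 named transporters, the one that left its counting interval was SLC6A20 in the comparison of OA with control, at -4.24 with a pseudocount of 5 in place of -6.50. TMM, total-count scaling and the pseudocount turned the direction of none of them. Genes with few counts, such as SLC38A3 and SLC43A2, are those that depth limits most.

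The counts of transporters past the cutoff depended most on the filter and the size of the cutoff. Dropping the filter also widened the set, since the 23 members with a count but below the filter joined the 26 compared. A larger number there need not be a larger share. Comparing YA with control, 8 higher and 6 lower became 14 and 19 when no filter was applied, 1 and 1 at 2-fold, and 5 and 4 where the whole counting interval had to pass 1.2-fold. Comparing OA with control, 5 higher and 8 lower became 7 and 24 without a filter, 2 and 2 at 2-fold, and 3 and 6 by the interval. Comparing the secretomes, 12 higher and 2 lower in YA became 25 and 4 without a filter, 3 and 0 at 2-fold, and 7 and 0 by the interval; under TMM or total-count scaling 1 was lower, since SLC6A8 left the cutoff. By the interval, 869 of all 14413 genes compared were higher and 640 lower in YA, and 1303 and 1308 in OA. Between the secretomes 1444 were higher in YA and 1301 lower. Shares of all genes were not computed without a filter or at 2-fold. The other solute carriers gave 72 higher and 77 lower without a filter when YA was set beside control. They gave 60 and 101 when OA was, and 95 and 67 between the secretomes. A minimum mean of 100 left fewer genes to compare. There 29 of the other solute carriers were lower in OA than control and 31 higher in YA than OA. At that setting 1 synthesis enzyme was lower in OA and 1 mitochondrial or lysosomal carrier lower in YA. Without a filter 5 such carriers were lower in OA.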
